A study of Mus musculus with 6 samples.

Results

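Genes of mitosis were compared between mouse haematopoietic cells made from embryonic stem cells (ESCs) and the stem and progenitor fraction of adult marrow. The list held 34 genes of the G2 phase and of mitosis, matched by symbol to the Ensembl IDs of the count table. All 34 were found among its 55401 gene IDs, and all 34 passed the filter on low counts. The LSK group was 3 libraries of untreated, wild-type marrow cells of C57BL/6 mice aged 6 to 8 weeks, gated as Lin-Sca-1+c-Kit+, the gate that holds haematopoietic stem cells and multipotent progenitors. The ESC-derived group was 3 libraries of Lin-Sca-1+c-Kit- cells, labelled as wild type and as the product of ESC differentiation. They were sorted from the marrow of primary recipients that had been given cells sorted for CD144, an endothelial adhesion molecule. The groups therefore differ both in origin and in the c-Kit gate, and these cannot be told apart. Each library was made from 2000 cells, and nothing in the labels says that libraries came from separate mice, so p-values measure the spread between libraries, which may be technical.

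A dividing cell enters mitosis when the kinase Cdk1, bound to cyclin A or B, is switched on with help from Plk1 and the Aurora kinases. Chromosomes then attach to the spindle through kinetochores, and the spindle checkpoint holds the cell until all are attached. Cdc20 with the anaphase-promoting complex (APC/C) and its ubiquitin-conjugating enzyme Ube2c then marks cyclin B and securin for destruction, the chromatids part, and the central spindle directs the division of the cytoplasm. Most of these genes are transcribed in G2 under the B-Myb-MuvB complex and FoxM1, which act through a promoter element called the cell cycle homology region, often next to CCAAT boxes bound by NF-Y. In adult marrow most long-term stem cells rest, while multipotent progenitors in the same gate divide.

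The libraries held 41580006 to 49269286 estimated counts, and levels are given as CPM, counts scaled to a common library size after adjustment by the trimmed mean of M-values. Kit, the gene of the c-Kit gate, had 6802 counts in LSK and 12 in ESC-derived libraries, summed over each group. Levels in LSK replicate 2 lay between those of LSK replicates 1 and 3 in 66.1% of tested genes with a mean of at least 10 CPM, against 30.7 to 38.2% for each ESC-derived library in its group. For the 34 mitosis genes alone the 2 groups were alike in this. LSK replicate 2 was the middle LSK library for 19 of them, and ESC-derived replicate 2 the middle library of its group for 18. Whether it is an independent sample was not tested, so the main counts are given with and without it.

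The promoters below belong to the called genes with the largest fitted differences, 4 that were higher in ESC-derived cells and the 2 that were lower. They are RefSeq windows of 300 bases on build GRCm38.p6, from 250 bases before the transcription start to 50 after it, written 5′ to 3′ on the gene's strand. The windows lie at chr2:164769679-164769978, plus strand for Ube2c, chr7:122159185-122159484, plus strand for Plk1, chr4:118437294-118437593, minus strand for Cdc20, chr9:70421505-70421804, minus strand for Ccnb2, chr2:118597961-118598260, plus strand for Bub1b and chr9:61946750-61947049, minus strand for Kif23. Capitals mark the cell cycle homology region, searched as TTTGAA or TTTAAA, and the CCAAT box, both on either strand, so that TTCAAA and ATTGG are the same motifs read from the other strand.
Ube2c: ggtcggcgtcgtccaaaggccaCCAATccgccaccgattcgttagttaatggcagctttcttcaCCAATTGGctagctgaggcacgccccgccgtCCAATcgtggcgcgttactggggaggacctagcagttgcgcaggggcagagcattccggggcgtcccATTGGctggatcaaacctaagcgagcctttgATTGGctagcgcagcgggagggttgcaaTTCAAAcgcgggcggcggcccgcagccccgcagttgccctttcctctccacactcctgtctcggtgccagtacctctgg
Plk1: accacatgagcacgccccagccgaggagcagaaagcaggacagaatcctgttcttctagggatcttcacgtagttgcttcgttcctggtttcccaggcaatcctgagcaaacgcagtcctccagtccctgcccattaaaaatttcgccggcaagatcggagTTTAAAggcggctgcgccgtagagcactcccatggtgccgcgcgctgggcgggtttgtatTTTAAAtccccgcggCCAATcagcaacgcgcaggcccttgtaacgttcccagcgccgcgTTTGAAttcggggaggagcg
Cdc20: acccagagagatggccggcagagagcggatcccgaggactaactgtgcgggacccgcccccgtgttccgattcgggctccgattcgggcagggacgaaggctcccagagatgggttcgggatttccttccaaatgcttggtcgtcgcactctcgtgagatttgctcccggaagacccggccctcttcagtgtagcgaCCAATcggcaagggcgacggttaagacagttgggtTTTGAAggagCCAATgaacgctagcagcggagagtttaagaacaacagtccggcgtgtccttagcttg
Ccnb2: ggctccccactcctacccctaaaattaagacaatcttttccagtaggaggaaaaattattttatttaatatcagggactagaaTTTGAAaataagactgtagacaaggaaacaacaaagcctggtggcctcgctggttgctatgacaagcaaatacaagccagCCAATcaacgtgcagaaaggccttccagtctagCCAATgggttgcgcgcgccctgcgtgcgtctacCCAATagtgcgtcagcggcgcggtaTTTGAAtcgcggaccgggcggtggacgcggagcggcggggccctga
Bub1b: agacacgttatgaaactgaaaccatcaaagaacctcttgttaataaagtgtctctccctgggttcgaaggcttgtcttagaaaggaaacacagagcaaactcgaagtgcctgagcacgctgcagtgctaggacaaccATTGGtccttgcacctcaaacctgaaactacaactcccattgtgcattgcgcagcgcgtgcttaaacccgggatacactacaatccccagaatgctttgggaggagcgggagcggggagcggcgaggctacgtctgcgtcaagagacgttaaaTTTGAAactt
Kif23: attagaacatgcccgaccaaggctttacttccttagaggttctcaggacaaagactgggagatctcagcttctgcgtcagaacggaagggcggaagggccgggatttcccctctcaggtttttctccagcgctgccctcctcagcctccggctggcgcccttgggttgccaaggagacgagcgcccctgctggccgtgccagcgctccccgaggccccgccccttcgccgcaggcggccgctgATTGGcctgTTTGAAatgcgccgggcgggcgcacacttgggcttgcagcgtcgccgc

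All 6 windows held both motifs, in the 4 genes that rose and in the 2 that fell alike. In the genes that rose, the homology region lay at position -18 from the start in Cdc20 and at position -29 in Ube2c. It lay at positions -89, -29 and 31 in Plk1 and at positions -167 and 5 in Ccnb2. In the genes that fell, it lay at position 41 in Bub1b and at position 3 in Kif23. Among the members, 30 had a window in the promoter table. The homology region was in 25 of these 30 (83.3%), against 7519 of 27025 genes with a window (27.8%). The CCAAT box was in 23 (76.7% against 37.9%), and both were in 21 (70.0% against 10.9%). An E2F site, searched as TTTCGCGC or TTTGGCGC on either strand, was in 1 member, Cdk1 (3.33% against 0.833%). The homology region was in 8 of the 9 higher genes with a window, in 2 of the 2 lower ones and in 15 of the 19 that did not pass. Mad2l1 was the higher gene without it. The end of the Mad2l1 window matched no annotated transcript of the gene, and the same held for Aurka and Kif2c. These windows may therefore not lie at the start used. A match is a match of letters only and shows no binding.

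Rises outnumbered falls among the mitosis genes in the ESC-derived cells, and most of the list did not pass. Of the 34 genes, 10 were higher, 2 were lower and 22 did not pass (edgeR quasi-likelihood test, adjusted p under 0.05 over 16211 tested genes). Of all tested genes 30.0% were called, 14.8% higher and 15.2% lower. The 12 called members are 35.3% of the list, close to the 36.3% called among the 9144 tested genes with a mean CPM in the members' range. By direction, 29.4% of the members were higher and 5.88% lower, against 19.6% and 16.7% of those genes. The groups did not overlap for 20 members, 16 higher and 4 lower. Among all tested genes the groups did not overlap for 49.8%, 22.6% higher and 27.2% lower, and among those in the members' CPM range for 55.2%, 27.9% higher and 27.3% lower. The median log2 fold change was 0.35 over the members and -0.07 over all tested genes, and 24 members had a positive value. Without LSK replicate 2, 7 members were higher and 1 was lower, while 2716 of 17030 genes were called in all, and the calls of Bub1b, Cdca8, Kif20a and Mad2l1 were lost. The same calls were lost without LSK replicate 3, where 8 members and 3905 of 17459 genes were called.

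**Figure D1:**
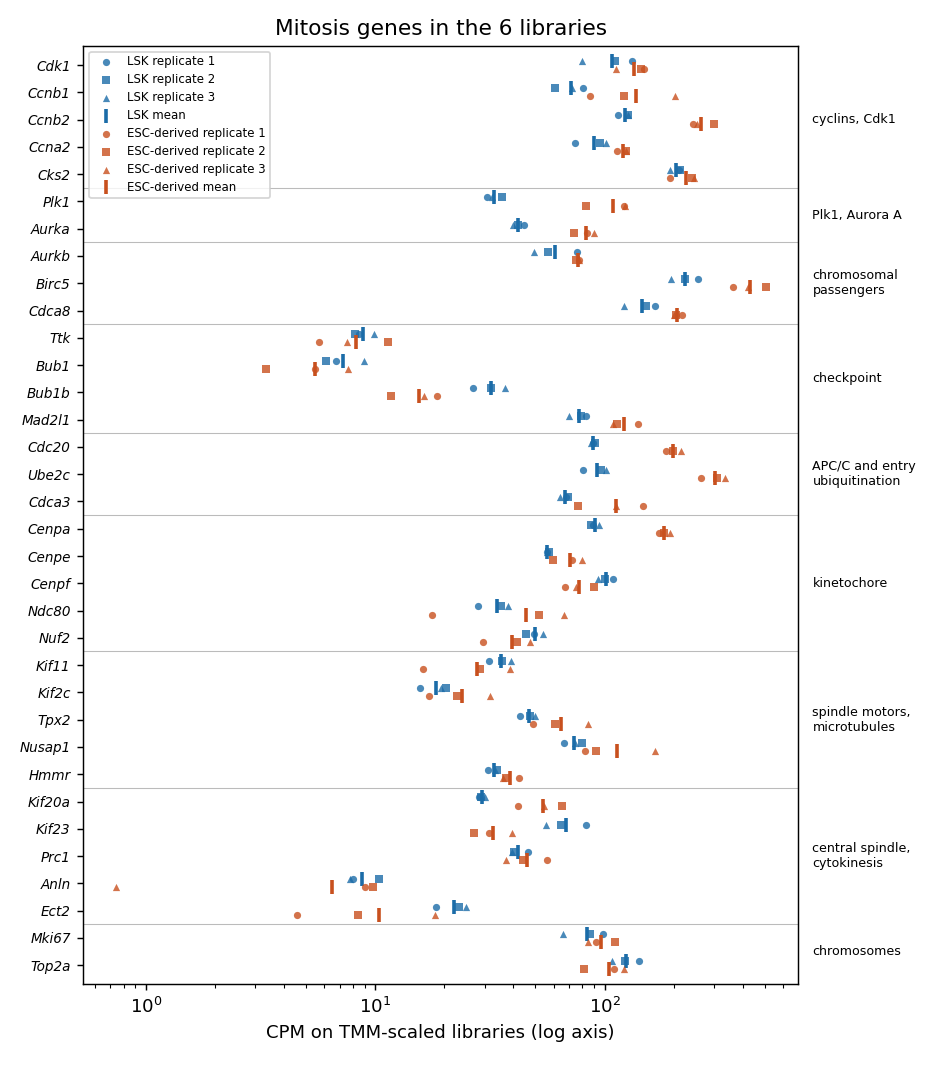
Level of each of the 34 mitosis genes in the 6 libraries, in CPM on a log axis. Points are libraries, vertical bars are group means, and genes are grouped by role. The ESC-derived points of Plk1, Ube2c, Cdc20, Ccnb2, Cenpa and Aurka lie to the right of every LSK point, those of Kif23 and Bub1b lie to the left, and Anln in ESC-derived replicate 3 stands at 0.74 CPM.

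The largest rises were those of Plk1, Ube2c and Cdc20. Ube2c, the ubiquitin-conjugating enzyme of the APC/C (ENSMUSG00000001403, mm10 chromosome 2, 164769898 to 164778822, plus strand), stood at 80.5, 96.3 and 101 CPM in LSK replicates 1 to 3 and at 263, 311 and 334 CPM in ESC-derived replicates 1 to 3. All 3 ESC-derived libraries were above every LSK library, with a fold change of 3.26 (log2 1.71 ± 0.14, SE, adjusted p = 0.000342 by the edgeR quasi-likelihood test, as for every adjusted p of a gene here). Exons of 9 members overlap those of another gene, with over 20% of the exon bases covered in 2, Ube2c and Kif20a. Exons of Tnnc2 on the other strand cover 22.8% of the exon bases of Ube2c. The library kit does not mark strand, and reads of the 2 genes cannot be told apart there. Tnnc2 had 10 counts in LSK and 0 in ESC-derived libraries. The part of the overlap in the Ube2c values was not tested. Cdc20, which activates the APC/C at the exit from metaphase (chromosome 4, 118432901 to 118437352, minus strand), stood at 89.0, 90.5 and 87.0 CPM in LSK and at 185, 199 and 215 CPM in ESC-derived libraries. The LSK libraries were tight, with an SD of 1.74 CPM, no values overlapped, and Cdc20 rose by a log2 fold change of 1.17 ± 0.11 (adjusted p = 0.000472). Exons of Elovl1 on the other strand cover 2.84% of the exon bases of Cdc20. Elovl1 had 19655 counts in LSK and 28661 in ESC-derived libraries. Cdca3, an adaptor that triggers destruction of the Wee1 kinase at mitotic entry, stood at 68.1, 69.3 and 63.8 CPM in LSK and at 147, 76.9 and 112 CPM in ESC-derived libraries. Its groups did not overlap, but ESC-derived replicate 2 was near the LSK range, and the log2 fold change of 0.74 ± 0.24 did not pass (adjusted p = 0.0553). Without ESC-derived replicate 2 it passed, at 0.95 (adjusted p = 0.0131), and without replicate 1 it was 0.49 (adjusted p = 0.1202).

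Plk1, the kinase that acts from mitotic entry to cytokinesis (chromosome 7, 122159439 to 122169873, plus strand), stood at 30.9, 35.8 and 32.4 CPM in LSK and at 121, 82.8 and 123 CPM in ESC-derived libraries. It had the largest log2 fold change of the 34 genes, 1.73 ± 0.19 (3.31-fold, adjusted p = 0.00112), and no overlap. Aurka, the Aurora A kinase of centrosomes and spindle poles (chromosome 2, 172356190 to 172370535, minus strand), was at 44.7, 42.02 and 39.7 CPM in LSK and at 84.1, 73.8 and 90.2 CPM in ESC-derived libraries. It rose by 0.97 ± 0.15 (adjusted p = 0.00334). Tpx2, which loads Aurora A onto the spindle, was at 42.9 to 49.9 CPM in LSK and 48.7 to 84.3 CPM in ESC-derived libraries, which overlap, and did not pass (0.47 ± 0.22, adjusted p = 0.171).

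Among Cdk1 and its cyclins the 2 B-type cyclins had the largest differences. Ccnb2, cyclin B2 (chromosome 9, 70407692 to 70421547, minus strand), was at 114, 126 and 126 CPM in LSK and at 243, 299 and 253 CPM in ESC-derived libraries, without overlap, and rose by 1.11 ± 0.12 (adjusted p = 0.000917). Ccnb1, cyclin B1, was at 80.2, 60.9 and 72.4 CPM in LSK and at 86.3, 122 and 204 CPM in ESC-derived libraries. All 3 ESC-derived values were above the LSK values, but their SD was 60.1 CPM, and the log2 fold change of 0.95 ± 0.31 did not pass (adjusted p = 0.0618). Without ESC-derived replicate 1 it was 1.19 (adjusted p = 0.0214), and without replicate 3 it was 0.55 (adjusted p = 0.109). Ccna2, cyclin A2, which starts to act in S phase, averaged 90.4 ± 14.5 CPM (SD, n = 3, as for all such means) in LSK and 120.4 ± 6.28 CPM in ESC-derived libraries (0.41 ± 0.15, adjusted p = 0.0863). The groups did not overlap. Exons of Exosc9 on the other strand cover 12.5% of the exon bases of Ccna2. Exosc9 had 6225 counts in LSK and 9389 in ESC-derived libraries. Cdk1 itself averaged 108 ± 26.0 and 135 ± 19.8 CPM, and the groups overlapped (0.32 ± 0.21, adjusted p = 0.310). Cks2, the small subunit that binds Cdk1, averaged 206 ± 11.0 and 226 ± 28.7 CPM, also with overlap (0.14 ± 0.13, adjusted p = 0.471). Cyclin B2 was thus the 1 gene of these 5 to pass.

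The chromosomal passenger complex corrects faulty attachments and later works at the central spindle. Birc5, its survivin subunit (chromosome 11, 117849251 to 117855743, plus strand), was at 254, 225 and 195 CPM in LSK and at 362, 504 and 424 CPM in ESC-derived libraries, with no overlap. It rose by 0.94 ± 0.16 (adjusted p = 0.00596). Cdca8, which encodes borealin, was at 165, 151 and 121 CPM in LSK and at 218, 204 and 201 CPM in ESC-derived libraries, and rose by 0.51 ± 0.14 (adjusted p = 0.0322). That call was the least stable of the 12. It was lost on leaving out LSK replicate 2 (adjusted p = 0.113) or LSK replicate 3 (0.0687), and ESC-derived replicate 1 (0.0817), 2 (0.0725) or 3 (0.0598), and in these fits the log2 fold change was between 0.38 and 0.53. Aurkb, the kinase of the complex, was at 49.4 to 76.0 CPM in LSK and 74.9 to 77.3 CPM in ESC-derived libraries, which overlap, and did not pass (0.33 ± 0.19, adjusted p = 0.235).

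The spindle checkpoint genes went in both directions. Bub1b, which encodes BubR1, the inhibitor that holds Cdc20 until all kinetochores are attached (chromosome 2, 118598211 to 118641591, plus strand), was at 26.8, 32.1 and 36.8 CPM in LSK and at 18.6, 11.8 and 16.2 CPM in ESC-derived libraries. Every ESC-derived library was below every LSK library, and Bub1b fell by 1.04 ± 0.26 on the log2 scale (2.05-fold lower, adjusted p = 0.0231). The call was lost without LSK replicate 2 (-1.06, adjusted p = 0.0872), LSK replicate 3 (-0.93, 0.0758) or ESC-derived replicate 2 (-0.87, 0.0505). Mad2l1, which encodes Mad2, the other protein that binds Cdc20 in the checkpoint complex (chromosome 6, 66535390 to 66547220, plus strand), was at 83.0, 78.9 and 69.8 CPM in LSK and at 141, 114 and 109 CPM in ESC-derived libraries. Its direction was opposite to that of Bub1b, with no overlap and a log2 fold change of 0.65 ± 0.15 (adjusted p = 0.0178). It did not pass without LSK replicate 2 (0.64, adjusted p = 0.0780) or LSK replicate 3 (0.57, 0.0575). The checkpoint kinases Bub1 and Ttk had low levels, 7.24 ± 1.48 and 8.88 ± 0.925 CPM in LSK and 5.48 ± 2.14 and 8.21 ± 2.91 CPM in ESC-derived libraries. Neither passed (adjusted p = 0.568 and 0.859), and the log2 fold change of Ttk, -0.11 ± 0.38, was 0.094 without ESC-derived replicate 1.

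Of the 5 kinetochore genes, Cenpa passed. It encodes the histone H3 variant that marks centromeres (chromosome 5, 30666777 to 30674830, plus strand), and was at 89.5, 86.9 and 94.9 CPM in LSK and at 173, 181 and 192 CPM in ESC-derived libraries. The levels were tight within each group and did not overlap, and Cenpa rose by 1.01 ± 0.11 (2.01-fold, adjusted p = 0.000802). The kinesin Cenpe, which brings chromosomes to the spindle equator, averaged 56.4 ± 0.721 and 70.5 ± 10.1 CPM (0.32 ± 0.15, adjusted p = 0.171) without overlap. Cenpf, a large protein of the outer kinetochore and nuclear matrix, averaged 101 ± 7.90 in LSK and 77.4 ± 11.6 CPM in ESC-derived libraries, the lower value with no overlap, and did not pass (-0.38 ± 0.15, adjusted p = 0.107). With DESeq2 it passed (-0.41, adjusted p = 0.0430), and with offsets for exon length it was -0.074 (adjusted p = 0.745). Ndc80 and Nuf2, partners in the complex that grips microtubules, differed in sign, at 0.42 ± 0.45 and -0.33 ± 0.21, with overlapping groups and adjusted p of 0.545 and 0.310. ESC-derived replicate 1 was the low library for both, with 17.6 CPM of Ndc80 against 52.0 and 66.5 CPM in replicates 2 and 3, and without it the log2 fold change of Ndc80 was 0.81 (adjusted p = 0.0419). Without ESC-derived replicate 3 it was 0.042 (adjusted p = 0.959).

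**Figure D2:**
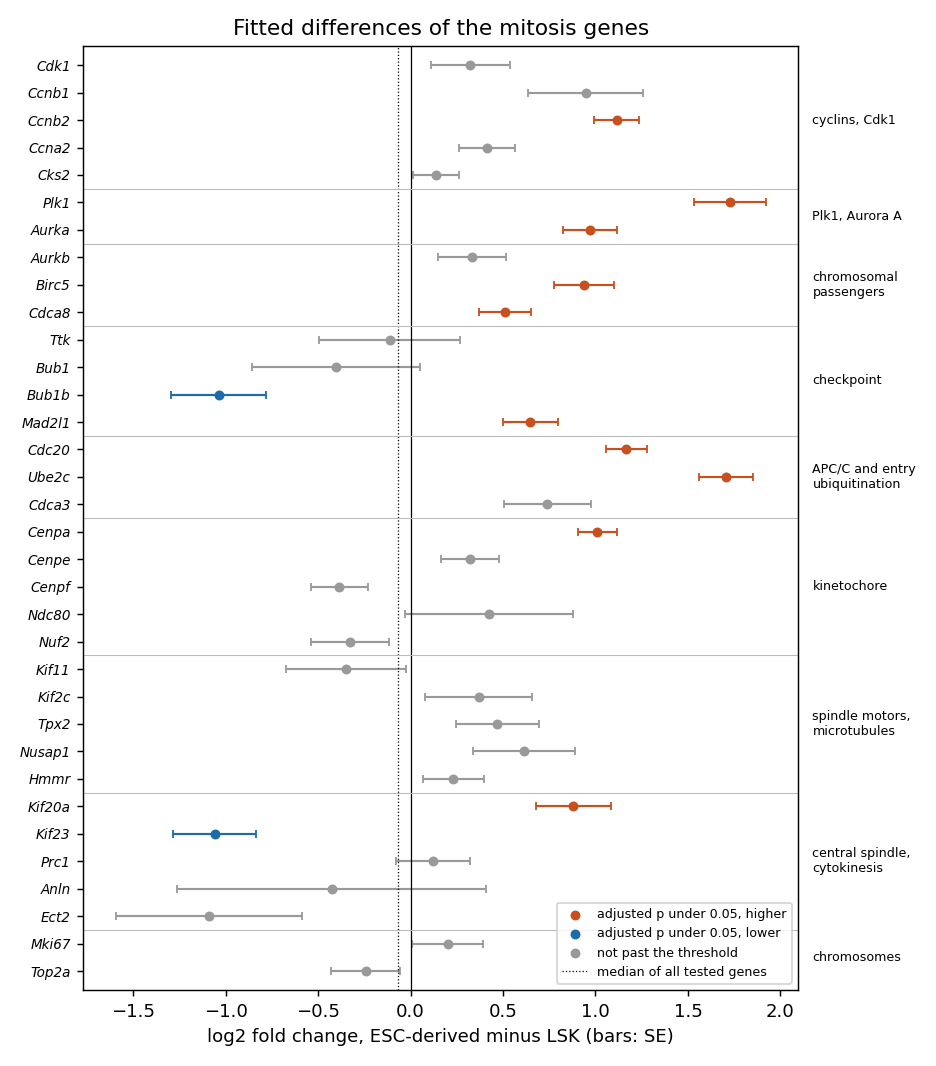
Fitted log2 fold change, ESC-derived minus LSK, of the 34 mitosis genes with its SE. Colour marks genes past an adjusted p of 0.05, and the dotted line is the median of all tested genes at -0.07. Both Plk1 and Aurora A passed as higher, as did 2 of 3 genes in each of the chromosomal passenger and APC/C groups. The 5 spindle motor and microtubule genes did not pass, and their median of 0.37 was near the 0.35 of all 34. Among all tested genes 14.8% were higher, and groups this small rest on few genes.

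None of the 5 spindle motor and microtubule genes passed. Nusap1, which bundles microtubules near chromosomes, had the largest difference, from 66.9, 79.8 and 74.6 CPM in LSK to 81.9, 91.7 and 165 CPM in ESC-derived libraries (0.62 ± 0.28, adjusted p = 0.148). The groups did not overlap, and ESC-derived replicate 3 was high. Kif2c, a kinesin that takes apart microtubule ends, averaged 18.5 ± 2.45 and 23.8 ± 7.38 CPM, and Kif11, the motor that pushes spindle poles apart, 35.5 ± 3.96 and 27.8 ± 11.3 CPM, both with overlap. Hmmr, a hyaluronan receptor that also binds spindle microtubules, averaged 32.9 ± 1.54 and 38.6 ± 3.48 CPM without overlap (0.23 ± 0.17, adjusted p = 0.353).

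Of the 5 genes of the central spindle and cytokinesis, Kif23 fell, Kif20a rose and 3 did not pass. Kif23, which encodes the kinesin subunit of centralspindlin, Mklp1 (chromosome 9, 61915905 to 61946774, minus strand), was at 83.0, 64.7 and 55.7 CPM in LSK and at 31.4, 26.9 and 39.3 CPM in ESC-derived libraries. All ESC-derived values were below the LSK values, and Kif23 fell by 1.06 ± 0.22 on the log2 scale (2.08-fold lower, adjusted p = 0.0131). Kif20a, which encodes Mklp2, the kinesin that carries the passenger complex to the central spindle (chromosome 18, 34624613 to 34633277, plus strand), was at 28.4, 28.9 and 30.2 CPM in LSK and at 41.9, 65.1 and 54.2 CPM in ESC-derived libraries. It rose by 0.88 ± 0.20 (adjusted p = 0.0173) without overlap. The call was lost without LSK replicate 1 (adjusted p = 0.0603), 2 (0.0866) or 3 (0.0536). Exons of Cdc23 on the other strand cover 29.3% of the exon bases of Kif20a, and reads of the 2 genes cannot be told apart there. Cdc23 had 5287 counts in LSK and 3955 in ESC-derived libraries, unscaled, and these counts depend on how the shared reads were assigned. The part of the overlap in the Kif20a values was not tested. Ect2, the exchange factor that switches on RhoA at the cleavage furrow, was at 18.5, 23.2 and 24.8 CPM in LSK and at 4.57, 8.45 and 18.2 CPM in ESC-derived libraries. All ESC-derived values were below the LSK values, ESC-derived replicate 3 only just, and the log2 fold change of -1.09 ± 0.50 did not pass (adjusted p = 0.158). Without that library it was -1.77 (adjusted p = 0.0232), and without ESC-derived replicate 1 it was -0.73 (adjusted p = 0.221). Prc1, which cross-links the midzone microtubules, averaged 42.04 ± 3.70 and 45.8 ± 9.63 CPM with overlap (0.12 ± 0.20, adjusted p = 0.699), and its sign depended on the scaling. Exons of Rccd1 on the other strand cover 11.1% of the exon bases of Prc1. Rccd1 had 1192 counts in LSK and 239 in ESC-derived libraries. Anln, the actin-binding scaffold of the contractile ring, was at 8.02, 10.4 and 7.75 CPM in LSK and at 8.99, 9.75 and 0.74 CPM in ESC-derived libraries. Replicate 3 alone was low, and the log2 fold change of -0.43 ± 0.83 was 0.10 without it.

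The most used markers of dividing cells did not pass. Mki67, which encodes Ki-67, the protein that coats mitotic chromosomes, was at 98.6, 86.3 and 65.7 CPM in LSK and at 92.3, 111 and 84.9 CPM in ESC-derived libraries. The groups overlapped, and the log2 fold change was 0.20 ± 0.19 (adjusted p = 0.493), with the opposite sign on library totals alone (-0.061). Top2a, the topoisomerase that untangles sister chromatids, was at 142, 122 and 107 CPM in LSK and at 110.2, 81.5 and 122 CPM in ESC-derived libraries, which overlap (-0.24 ± 0.19, adjusted p = 0.394).

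Per kilobase of annotated exon, the order of the 34 genes was much the same in both groups, with a rank correlation of 0.93 over the 34 genes, which share libraries and annotation. Cks2, Ccnb2 and Birc5 were the highest in both, at 297, 79.9 and 66.0 CPM per kilobase in LSK and 327, 173 and 127 CPM per kilobase in ESC-derived libraries. Ttk, Bub1 and Anln were the lowest in both, with Anln at 0.963 and 0.717 CPM per kilobase. Plk1 went from place 15 in LSK to place 6 in ESC-derived libraries. The median member ranked above 82.6 to 86.2% of the tested genes in every library by CPM. The 34 genes were all above 1 CPM in 5 libraries, and 33 were in ESC-derived replicate 3. The spread of these genes between libraries was larger in the ESC-derived group, with a median coefficient of variation of 19.7% against 10.8% in LSK. It was larger there for 28 of the 34 genes. Over 6141 tested genes with a mean of at least 20 CPM, the median absolute log2 difference between pairs of libraries was 0.27 to 0.33 in the ESC-derived group. In LSK it was 0.16 to 0.29. The LSK spread includes LSK replicate 2, whose independence was not tested. Whether the members differ from other genes in spread was not tested. ESC-derived replicate 3 was the highest library of its group for 20 genes and replicates 1 and 2 for 7 each.

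Summed over the 34 genes, LSK replicates 1 to 3 held 2490, 2418 and 2271 CPM and ESC-derived replicates 1 to 3 held 3323, 3607 and 3829 CPM. The sums did not overlap, and their means were 2393 ± 111 and 3586 ± 254 CPM, a ratio of 1.50. On library totals alone the ratio was 1.26. The sums over 44 genes of DNA replication and S phase lay the other way, at 4989, 4973 and 4915 CPM in LSK and 4246, 4241 and 4287 CPM in ESC-derived libraries. Such sums weigh genes with a high CPM most. The median log2 fold change was 0.35 over the members and -0.33 over the S phase genes. The ratio of the mitosis sum to the S phase sum within a library does not depend on scaling. It was 0.499, 0.486 and 0.462 in LSK and 0.783, 0.850 and 0.893 in ESC-derived libraries. In bulk RNA, fewer cells of a type and less RNA per cell cannot be told apart.

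**Figure D3:**
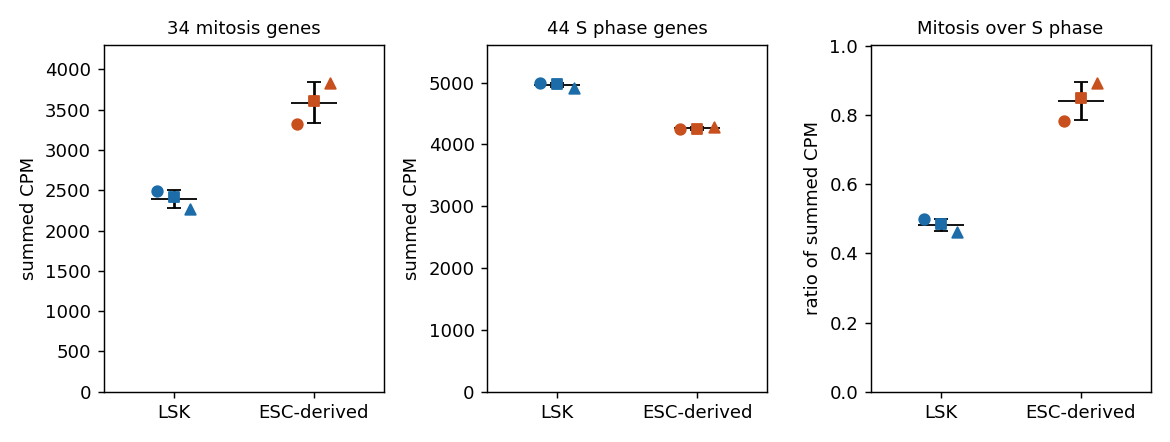
Summed CPM of the 34 mitosis genes and of 44 S phase genes, and their ratio, by library. Points are replicates 1 (circle), 2 (square) and 3 (triangle), and bars are the mean with its SD (n = 3). The mitosis sum is 1.50 times higher in the ESC-derived libraries, while the S phase sum is lower and the ratio goes from 0.462 to 0.499 in LSK to 0.783 to 0.893.

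The cell types in the libraries differed at the same time. The summed level of 10 T cell markers was 135 to 171 CPM in LSK and 14118 to 14760 CPM in ESC-derived libraries. That of 10 stem and multipotent progenitor markers was 1906 to 1970 and 45.1 to 94.8 CPM, with Hoxa9 at 0 in the ESC-derived libraries. In that list 9 markers were lower and 1 was higher. The 8 plasma cell markers summed to 4236 to 4968 and 97.9 to 119 CPM with Tnfrsf17 at 0 in ESC-derived libraries, and the 10 B cell precursor markers to 862 to 910 and 4.78 to 15.1 CPM with Igll1 and Rag1 at 0 there. Among the plasma cell markers 6 were lower, 1 was higher and 1 did not pass. Among the 9 B cell precursor markers tested, 7 were lower and 2 did not pass. The 10 neutrophil precursor markers summed to 1189 to 1377 and 1848 to 3603 CPM with Fcnb at 0 in ESC-derived libraries. Of those 10, 4 were higher and 2 lower, and the median log2 fold change was -0.81, against the direction of the sum. The part of these differences in the mitosis results was not tested.

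Exon length and the difference between groups were related over the list, with exceptions. Exon length here counts the bases covered by exons of any annotated transcript of a gene, and can exceed the length of a single transcript. Whether the same order holds for the lengths of the transcripts present was not tested. The rank correlation of annotated exon length with the log2 fold change was -0.59 over the 34 genes, -0.20 over the 141 genes of all mitosis lists and -0.07 over the 16198 tested genes with a length. Genes share libraries and are not replicates. The 10 higher genes had a median exon length of 3001 bases, the 2 lower ones 6088 and the 22 others 5160. Ccnb2, Cdc20, Plk1, Aurka and Ube2c all had between 1531 and 2600 exon bases, while Cenpf, Mki67, Anln and Top2a had between 9013 and 15433. Against that order, Cks2, the shortest at 692 bases, had a log2 fold change of 0.14 and did not pass, while Cenpa (5860 bases, 1.01) and Mad2l1 (8390 bases, 0.65) rose. When each library was centred within 20 bins of exon length, all 12 calls were kept, Ccna2, Ccnb1, Cdca3 and Cenpe passed too, and the median of the 34 genes was 0.49. The median of all tested genes moved up as well, from -0.07 to 0.03. This alternative was chosen after seeing the data.

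**Figure D4:**
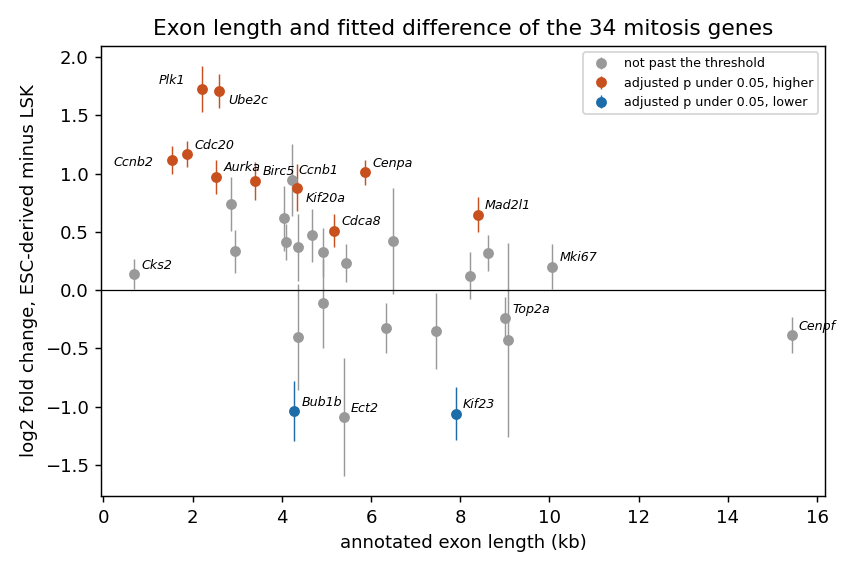
Annotated exon length in kilobases against the fitted log2 fold change, ESC-derived minus LSK, for the 34 mitosis genes, with bars for the SE. Genes past an adjusted p of 0.05 are coloured. The genes with the largest rises, Plk1 and Ube2c, are 2199 and 2600 bases long, and the rank correlation is -0.59.

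In 7 further mitosis lists with 107 tested genes, 17 rose (15.9%) and 16 fell (15.0%), near the 14.8% and 15.2% of all tested genes, with a median log2 fold change of -0.10. The difference from the 34 was not tested. Each list held few calls, and the ones named here are those with the smallest adjusted p in each direction. Of 8 condensin genes, which compact chromosomes, Smc4 (0.89 ± 0.10) and Ncaph2 (0.49 ± 0.14) rose and Ncapd3 (-0.98 ± 0.29) fell. Of 12 genes of cohesin and separase, 3 rose and 3 fell, among them the securin gene Pttg1 (1.95 ± 0.20, from 81.3 ± 20.6 to 315 ± 10.2 CPM) and Rad21 (0.73 ± 0.18), and Smc1a (-0.75 ± 0.15) and Esco2 (-1.07 ± 0.22). Of 17 APC/C genes, Anapc16 (0.88 ± 0.15) and the inhibitor gene Fbxo5 (0.91 ± 0.15) rose and 15 did not pass.

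Of 19 genes of the constitutive centromere network and of Cenpa loading, 3 rose (15.8%) and 3 fell (15.8%). These shares were near the 14.8% higher and 15.2% lower of all tested genes. Cenpw (1.10 ± 0.13) and Mis18a (0.90 ± 0.15) rose, while Cenpm (-1.17 ± 0.15) and Hjurp, the chaperone that deposits the Cenpa protein (-0.88 ± 0.13), fell. Of 17 outer kinetochore and checkpoint genes, Bub3 rose (0.64 ± 0.18) and Kntc1, a subunit of the complex that brings dynein to kinetochores, fell (-2.37 ± 0.47, from 21.5 ± 0.694 to 4.17 ± 2.13 CPM). Of 21 genes of the spindle, centrosome and cytokinesis, 3 rose (14.3%) and 3 fell (14.3%), also near those shares. Racgap1, which encodes the partner of Kif23 in centralspindlin, rose by 1.57 ± 0.25 (53.4 ± 14.6 to 158 ± 30.5 CPM), opposite to Kif23. Kif22 rose (0.55 ± 0.10), and Sass6 (-1.75 ± 0.30) and Stmn1, a microtubule destabiliser (-2.36 ± 0.20), fell. Of 13 genes of the mitotic entry switch, 3 rose (23.1%) and 5 fell (38.5%), shares that rest on few genes. Wee1, the kinase that holds Cdk1 inactive, fell by 2.53 ± 0.36 on the log2 scale (73.9 ± 26.2 to 12.8 ± 4.15 CPM), and Pbk fell (-1.47 ± 0.26). Arpp19 (1.05 ± 0.12) and Cdc25b, the phosphatase that opposes Wee1 (2.34 ± 0.59), rose. The adjusted p of these genes ran up to 0.0451, and the calls of Ncaph2, Ncapd3, Rad21, Kif22, Bub3 and Cdc25b were each lost under at least 1 alternative. Cdc25b was at 4.62, 12.8 and 27.2 CPM in LSK replicates 1 to 3 and at 64.0, 75.0 and 86.6 CPM in ESC-derived libraries, and its adjusted p was 0.0930 without LSK replicate 2 and 0.0505 to 0.0663 without 1 ESC-derived library.

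Among the transcriptional regulators of these genes, 4 of 15 rose (26.7%) and 2 fell (13.3%). Of all tested genes 14.8% were higher and 15.2% lower, and the shares of such short lists rest on few genes. E2f4 (1.29 ± 0.20) and Rbl2 (1.12 ± 0.20), of the repressive DREAM complex, rose, and E2f1 (-1.14 ± 0.30) and Tfdp1 (-0.64 ± 0.20) fell, both with calls lost under some alternatives. Of the 44 S phase genes, 4 rose and 11 fell, with a median of -0.33. Rrm2, the ribonucleotide reductase subunit (1.13 ± 0.19), and Rpa2 (0.71 ± 0.12) rose, while Rfc2 (-1.39 ± 0.14) and the helicase gene Mcm7 (-0.86 ± 0.11) fell. Of 9 G1 cyclins and kinases, 3 rose (33.3%), Ccnd2 (1.28 ± 0.09) and Ccnd3 (1.56 ± 0.12) among them. Cdk4 (-1.27 ± 0.11) and Cdk6 (-1.14 ± 0.16) fell (22.2%). Of 7 cell cycle inhibitors, 4 rose (57.1%), 1 fell (14.3%) and 2 did not pass, with a median of 0.88. Cdkn1a, which encodes p21, had a log2 fold change of -3.34 ± 0.15, with means of 411 ± 13.7 and 40.6 ± 6.17 CPM in LSK and ESC-derived libraries. Cdkn2b had 4 counts in LSK, about 1 fragment, and 3776 in ESC-derived libraries, summed over each group, a ratio of 1004 (95% counting interval 180 to 39698, counting error only). Cdkn2a had 0 and 1303 counts and was at least 115-fold higher against a floor of 12 counts over a group.

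**Figure D5:**
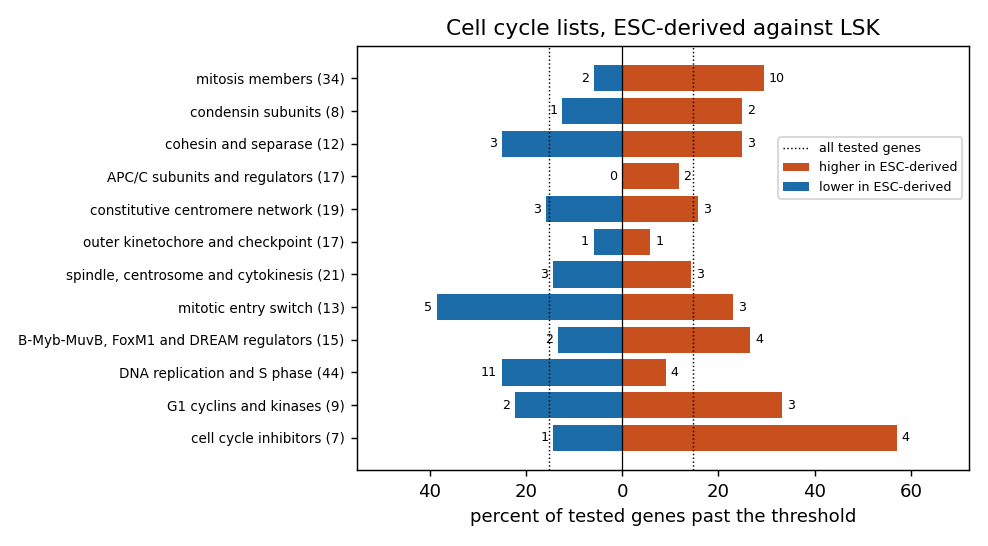
Share of the tested genes of each cell cycle list past an adjusted p of 0.05, higher (right) or lower (left) in ESC-derived cells, with the number of genes beside each bar and the number tested in brackets. Dotted lines are the shares of all tested genes, 14.8% higher and 15.2% lower. Of the 34 mitosis genes 10 were higher and 2 lower, and of the 44 S phase genes 4 were higher and 11 lower.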

How the data were processed

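RNA of 6 libraries was measured, 3 per group, each from 2000 cells. Per the labels, the SMART-Seq v4 kit made the cDNA from poly(A) RNA without marking strand, and the Nextera XT kit made the libraries. HISAT, StringTie and mm10 are named, without versions or roles, in the submitters' processing notes. The deposited values are estimated counts per gene, whole numbers that were not normalized. A fragment was often worth about 4 counts, since among values from 1 to 20 multiples of 4 made up 40.1 to 47.2%, so the floor was 12 counts over a group. The names of the 6 columns stand in 1 header field, and columns were assigned in the order of those names.

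Symbols, positions and exon lengths came from GENCODE M21, which matched 55141 of 55401 IDs. An exon length is the number of bases covered by exons of any transcript of the gene. Genes were filtered with filterByExpr (16211 left), scaled with TMM and tested with edgeR 4.0.16 in R 4.3.3 (quasi-likelihood F test, robust fit, two-sided, Benjamini-Hochberg over all tested genes, threshold 0.05), ESC-derived minus LSK, without a replicate block. CPM used the TMM-scaled libraries. The fit was checked on simulated counts. The alternatives were DESeq2 1.42.0, limma-voom (limma 3.58.1), upper quartile or RLE scaling, totals only, no filter, at least 50 counts in 3 libraries, values divided by 4, a replicate block, each library left out, and length-binned offsets.

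The members and lists were chosen with earlier results of these data known. All members were named, and from each other list up to 2 called genes per direction by adjusted p. Promoter windows are from RefSeq, and motifs and lists were described without a test. The result of 1 marker list is not reported here.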

Additional observations from a re-analysis of the deposited data

How the results depend on the processing

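Each of 16 alternatives was set against the reported fit. The calls of Plk1, Ube2c, Cdc20, Ccnb2, Cenpa, Aurka, Birc5 and Kif23 held under all 16, with Kif23 at an adjusted p of up to 0.0495 (edgeR, limma or DESeq2). The number of higher members ran from 7 to 11 when 1 library was left out, and the number of lower members from 1 to 3. On library totals only, which moved the median of all genes from -0.07 to -0.31, 7 members were higher and 3 lower, their median was 0.11, the ratio of sums 1.26, 2 S phase genes were higher and 19 lower, and 9 genes of the other mitosis lists were higher. Cdca8, Kif20a and Mad2l1 did not pass there. Length-binned offsets gave a median of 0.49 over the members and 0.03 over all tested genes. With 1 library left out, 2 to 5 S phase genes were higher and 7 to 11 lower, and 8 to 12 genes of the other mitosis lists were higher and 9 to 19 lower, the lowest counts being those without LSK replicate 2. DESeq2 called 12 members higher and 3 lower. The sign of 6 genes that did not pass depended on a setting. On library totals only it turned for Cks2 (-0.11), Hmmr (-0.016), Prc1 (-0.13) and Mki67 (-0.061), and with length-binned offsets for Cks2 (-0.010). With 1 library left out the values ran from -0.42 to 0.094 for Ttk, from -0.049 to 0.25 for Prc1 and from -0.84 to 0.10 for Anln. Of the 544 single-member values 15 passed where the reported one had not and 18 did the reverse. The deviations of same-numbered libraries correlated at 0.0144, 0.0377 and 0.0168, and those of other-numbered libraries at -0.0409 to 0.00683. All were under the 0.1 set as the minimum for a pairing. Whether the samples were paired by design cannot be told from these values. With the replicate block 9 members were higher and 1 was lower, without Bub1b and Cdca8. Bub1, Ttk and Anln had means under 10 CPM and SEs of 0.46, 0.38 and 0.83 on the log2 scale, wider than those of the 12 called members. Why calls moved was not tested.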
